A study of Mus musculus with 12 samples.

Results

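The genes described here are 8 genes of class II antigen presentation: H2-Aa, H2-Ab1, H2-Eb1, Cd74, H2-DMa, H2-DMb1, Ctss and Ciita. They were taken by gene symbol from a table of read counts with 55401 rows, and all 8 were among the 15764 genes with enough counts to be tested. The members were chosen by a measured value: the set was built around H2-Ab1, which had one of the smallest p-values between genotypes after sham surgery, rank 5 of 15764 by that p. For this reason the values of that contrast are given as a description, with no test. Just inside and just outside that rank lay Gpr179 at rank 4 and Gpr141b at rank 6. In the same order Cd74 had rank 9, H2-Eb1 rank 10, H2-Aa rank 13, H2-DMb1 rank 37, Ctss rank 185, H2-DMa rank 1138 and Ciita rank 12346.

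RNA of the mouse left ventricle was sequenced in 12 libraries, 3 in each of 4 groups, with totals of 36862004 to 46898344 counts. Mice that were wild type, or that carried T497A, a substitution in protein kinase C alpha (gene Prkca), were operated at 10 weeks of age. They had either a sham operation or transverse aortic constriction (TAC, a tie around the aortic arch set with a 27-gauge needle, which loads the left ventricle with pressure). Tissue was taken 5 weeks later, at 15 weeks of age. The groups are therefore wild type sham, wild type TAC, T497A sham and T497A TAC. The labels used here give no strain, sex or zygosity. Each title carries a number of its own whose meaning is not stated, and p-values speak of the spread among these libraries. The substitution changes a base and need not change the level of Prkca, so its counts do not check the genotype labels: Prkca means were 47.8, 57.3, 44.3 and 53.6 CPM (counts divided by the TMM-normalised size of each library) in the order wild type sham, wild type TAC, T497A sham and T497A TAC. The labels name cardiomyocytes as the cell type, but the protocol extracts cardiac tissue with no sort, and macrophage, endothelial and fibroblast markers were present in every group beside those of cardiomyocytes. In such tissue RNA, fewer cells of a type and less RNA per cell cannot be told apart.

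Class II molecules carry peptides from endocytosed proteins to the surface of antigen-presenting cells, where CD4+ T cells read them. An alpha and a beta chain assemble in the endoplasmic reticulum around the invariant chain CD74, which fills the groove and steers the complex to endosomes. There cathepsin S cuts the invariant chain, and the DM heterodimer exchanges the remaining fragment for peptide. The genes of the chains, of CD74 and of DM are switched on together by CIITA, a coactivator that binds no DNA itself. It is recruited by factors on a conserved promoter module of X and Y boxes. In the heart the molecules are found mainly on resident and recruited macrophages and on dendritic cells. Interferon gamma raises CIITA and with it the class II genes in many cell types.

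The module that CIITA is recruited to could be read in the RefSeq promoter table (GRCm38.p6), which held 5 of the 8 genes: H2-Aa, H2-Eb1, H2-DMa, H2-DMb1 and Ctss. The 250 bases before each start were searched on both strands for GCAAC, the core of the X box, for TGATTGG, the Y box, and for the pair GAAA, any 2 bases, GAAA, typical of promoters that answer interferon. Both H2-Aa and H2-Eb1 held GCAAC followed by TGATTGG on the strand of the gene, 26 and 25 bases apart. These stretches are shown since they hold the module described above. The pair was also found in H2-Oa, H2-Ob and H2-Eb2, at spacings of 26, 23 and 25 bases, class II genes outside the set that were scarce in these libraries. The Ctss stretch is shown beside them because it held the third motif and neither box. Capitals mark the matches, and each sequence runs 5′ to 3′ on the strand of the gene.
H2-Aa, chr17:34287852-34287919, minus strand: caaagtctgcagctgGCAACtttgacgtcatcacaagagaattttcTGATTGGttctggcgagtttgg
H2-Eb1, chr17:34305761-34305827, plus strand: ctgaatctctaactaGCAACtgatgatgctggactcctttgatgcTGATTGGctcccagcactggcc
Ctss, chr3:95526750-95526785, plus strand: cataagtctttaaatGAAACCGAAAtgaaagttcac
The ordered pair with 15 to 30 bases between was found in 31 of 32851 promoters of this length, or 0.0944%. TGATTGG alone was found in 7.23%, GCAAC alone in 29.9% and the GAAA pair in 2.98%. H2-DMb1 held TGATTGG and not the pair, and H2-DMa held GCAAC alone, on the opposite strand. A match is a description of the letters, not of a bound site.

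All genes but Ciita, Cd74 and Ctss lie in the major histocompatibility complex of chromosome 17. On GRCm38, with GENCODE M21 positions, H2-DMa spans 34119541 to 34139101, H2-DMb1 34153072 to 34160230, H2-Ab1 34257689 to 34269419, H2-Aa 34282744 to 34287823 and H2-Eb1 34305867 to 34316674. Cd74 lies on chromosome 18, Ciita on chromosome 16 (10480059 to 10528418) and Ctss on chromosome 3 (95526786 to 95556403). Exons of H2-DMa overlap Brd2 and those of Ciita overlap Dexi, each on the opposite strand, and the sources used here do not give the use of strand in counting. Counts of both genes may therefore hold reads of their neighbour. H2-DMb1 has a near-identical copy, H2-DMb2, so its counts are uncertain as well.

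Libraries fell into 2 kinds in 1 class II gene that is no member. H2-Ea encodes the alpha chain that pairs with the product of H2-Eb1; it is annotated as a polymorphic pseudogene because mice of the H2-b haplotype, C57BL/6 among them, do not transcribe it. Replicates 1 to 3 had 153, 175 and 2 counts of it in wild type sham, then 0, 284 and 0 in wild type TAC. T497A sham had 193, 0 and 0 and T497A TAC 0, 298 and 586. Every group thus held libraries with over 100 counts and libraries with 0 to 2, where a count of 0 allows up to 3. In a library with H2-Ea counts there were 0.187 to 0.279 of them per H2-Aa count.

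Ratios between members ran with H2-Ea. H2-Ab1 counts per H2-Aa count were 0.489 to 0.576 in the 6 libraries with H2-Ea and 0.596 to 0.742 in the 6 without. H2-Eb1 counts per H2-Aa count were 0.517 to 0.788 and 0.882 to 1.01. H2-Aa per Cd74, in contrast, overlapped between the libraries, at 0.398 to 0.447 and 0.348 to 0.457. The part of this split in the results was not tested beyond a fit with a term for the 6 libraries, added after the data were seen, whose values are given where they matter.

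**Figure D1:**
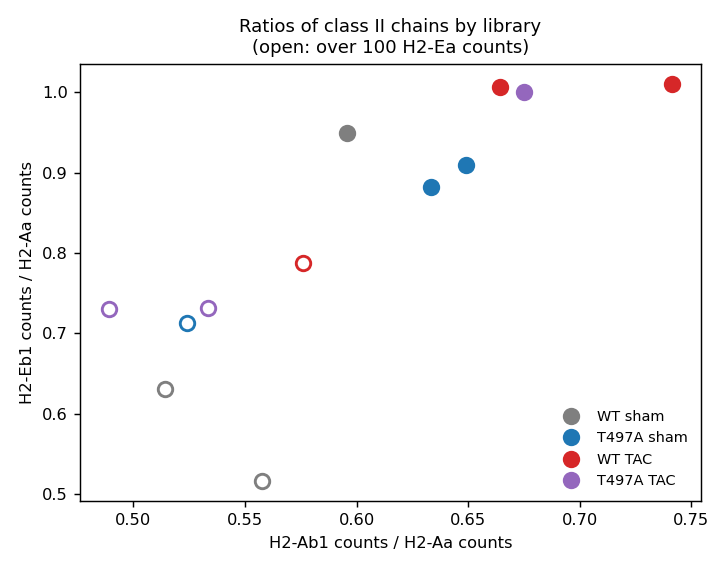
Counts of H2-Eb1 (vertical axis) and of H2-Ab1 (horizontal axis), each divided by the H2-Aa count of the same library, for the 12 libraries, coloured by group. Open points, libraries with over 100 H2-Ea counts, lie at 0.489 to 0.576 on the horizontal and 0.517 to 0.788 on the vertical axis, below all filled points on both.

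A single library, T497A TAC replicate 3, stood apart too: it had the highest CPM of all 12 libraries for 8 of the 8 genes. Calls among the 8 genes that rest on it are given with and without it. Log2 values of genes outside the set are given with it only.

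Levels between genes were compared per kilobase of annotated exon, pooled over all transcripts of a gene. This length can exceed that of the transcript expressed, and the order depends on it. By CPM alone, in wild type sham, H2-Aa at 13.9 lay above Ctss at 9.85 and H2-Eb1 at 9.68. Ciita at 1.33 CPM lay above H2-DMb1 at 0.514 there. In wild type sham hearts Cd74 was by far the most abundant at 18.8 ± 1.04 CPM per kb (SD, n = 3), followed by Ctss at 7.25 ± 0.728 and H2-Eb1 at 4.98 ± 1.52. H2-Aa at 3.66 ± 0.0551 and H2-Ab1 at 3.01 ± 0.181 came next. The gap between H2-Eb1 and H2-Aa was within the SD of H2-Eb1. H2-DMa (0.381 ± 0.0792) and H2-DMb1 (0.306 ± 0.0587) were about as far apart as their SD, and Ciita, the coactivator, was lowest at 0.14 ± 0.0143. Cd74 was the highest and Ciita the lowest per kb in the other 3 groups too. Together the 8 genes took 0.00724% to 0.00738% of all counts in wild type sham hearts, and the highest share was the 0.0263% of T497A TAC replicate 3.

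The chains of the I-A molecule, H2-Aa and H2-Ab1, had their lowest values in the wild type sham hearts. H2-Aa measured 14.0, 14.0 and 13.6 CPM in wild type sham and, after TAC, 25.1, 24.3 and 26.1. With T497A it was 25.6, 27.5 and 26.5 after sham and 23.5, 33.9 and 52.2 after TAC. Wild type sham stood below every other library, the next 2 groups lay close to each other, and T497A TAC was spread widely. H2-Ab1 measured 7.8, 7.22 and 8.13 CPM in wild type sham and, after TAC, 16.7, 14.0 and 19.3. With T497A it was 13.4, 17.9 and 16.8 after sham and 15.9, 18.1 and 25.5 after TAC. Here too wild type sham overlapped no other group, and the remaining groups overlapped each other.

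H2-Eb1, the beta chain of the I-E molecule, measured 7.23, 8.85 and 13.0 CPM in wild type sham and, after TAC, 25.2, 19.1 and 26.3. With T497A it was 18.3, 25.0 and 23.3 after sham and 23.5, 24.8 and 38.1 after TAC. The highest of the wild type sham values came from the 1 library of that group without H2-Ea counts. Cd74, the invariant chain, measured 33.4, 31.4 and 29.9 CPM in wild type sham and, after TAC, 59.5, 61.1 and 74.8. With T497A it was 57.3, 70.1 and 62.9 after sham and 59.4, 80.8 and 117.0 after TAC. As for the I-A chains, wild type sham lay below all other libraries.

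Of the peptide exchange factor, the beta chain H2-DMb1 also had its low group in wild type sham, at a level far below that of the chains. It measured 0.6, 0.536 and 0.407 CPM in wild type sham and, after TAC, 1.36, 1.04 and 1.56. With T497A it was 1.17, 1.16 and 1.01 after sham and 1.0, 1.06 and 1.92 after TAC. The alpha chain H2-DMa overlapped between all groups, with 1.2, 1.12 and 1.63 CPM in wild type sham and, after TAC, 2.7, 1.62 and 2.98. With T497A it was 1.29, 2.94 and 2.18 after sham and 1.36, 2.22 and 4.08 after TAC. These values rest on 14 to 176 counts per library.

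Ctss and Ciita had orders of their own. Ctss, the protease that cuts the invariant chain, measured 8.82, 10.8 and 9.93 CPM in wild type sham, 11.9, 13.9 and 12.5 in T497A sham, 23.0, 18.7 and 19.7 in wild type TAC, and 19.1, 21.7 and 29.3 in T497A TAC, so that every TAC library lay above every sham library. Ciita measured 1.36, 1.18 and 1.45 CPM in wild type sham, 1.39, 1.61 and 1.19 in T497A sham, 1.29, 0.97 and 1.4 in wild type TAC, and 1.83, 2.68 and 3.43 in T497A TAC. Only the last group stood apart, and above all other libraries.

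**Figure D2:**
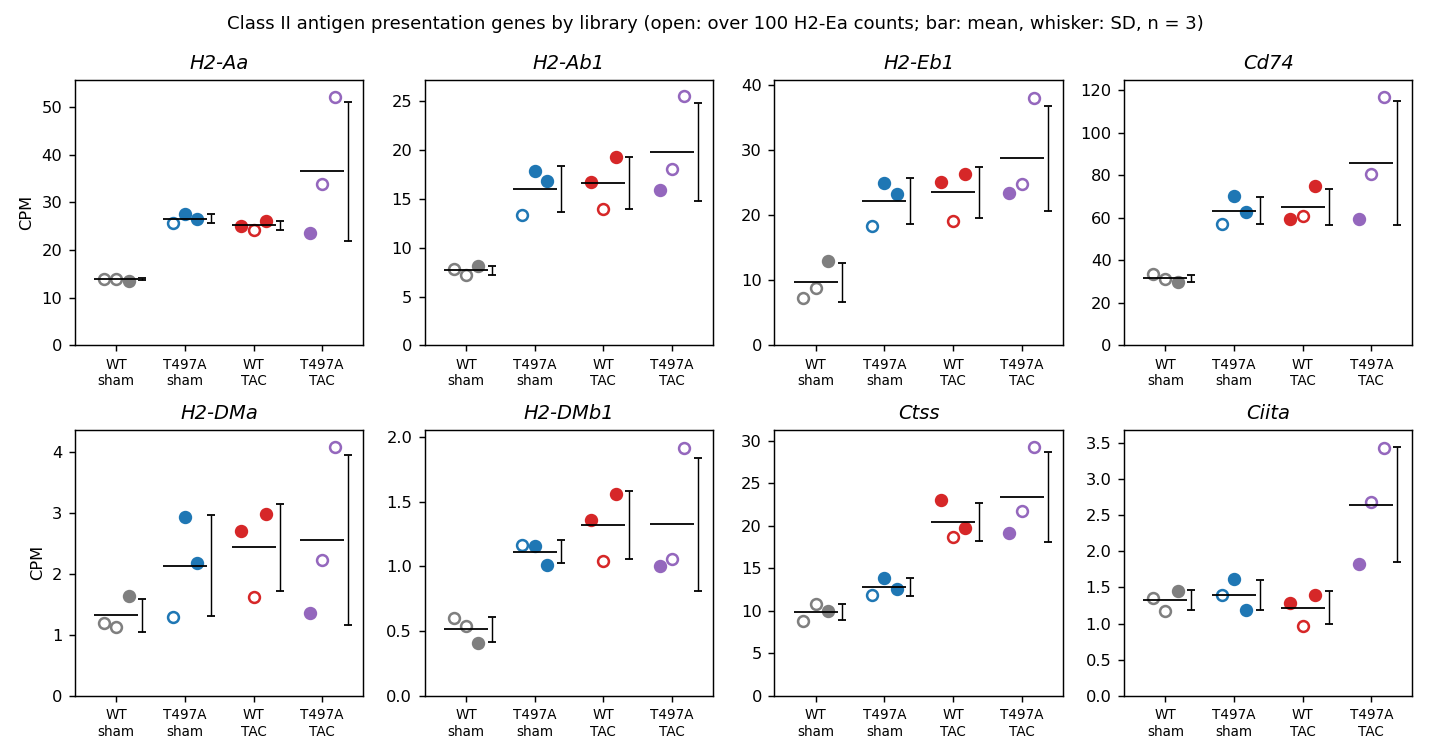
CPM of each of the 8 genes (vertical axes, from 0) in the 3 libraries of each group (points; bar, mean; whisker, SD; open points, over 100 H2-Ea counts). Wild type sham lies lowest for H2-Aa, H2-Ab1, H2-Eb1, Cd74, H2-DMb1 and Ctss, and for Ciita the T497A TAC libraries (1.83 to 3.43) lie above all others.

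The contrast that chose the genes, T497A against wild type after sham, is described without a test. A choice by small p favours a large difference and a small SE, so neither carries support here. Cd74 was 2.01 times as high in T497A sham as in wild type sham (log2 difference 1.01 ± 0.21, SE), H2-Ab1 2.08 times (1.05 ± 0.18), H2-Aa 1.91 times (0.93 ± 0.21) and H2-Eb1 2.3 times (1.2 ± 0.25). H2-DMb1 was at 2.15 times (1.1 ± 0.33), H2-DMa at 1.63 times (0.7 ± 0.4), Ctss at 1.3 times (0.38 ± 0.15) and Ciita, the coactivator of class II genes, at 1.05 times (0.07 ± 0.27). Groups did not overlap for 6 of the 8 genes, those other than H2-DMa and Ciita, while this held in this direction for 4.23% of all tested genes. Since the genes were chosen by this contrast, that share is no yardstick for their count. In this contrast 0.0254% of tested genes, 4 in all, passed the adjusted threshold of 0.05. In the fit with a term for H2-Ea the log2 difference of H2-Ab1 was 1.02, that of H2-Eb1 1.12, that of H2-Aa 1.0 and that of Cd74 1.05.

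Markers of other cells were read beside this. The summed CPM of the 8 genes was 74.4 to 78.0 in wild type sham and 130 to 160 in T497A sham. The sum of 18 macrophage markers was 241 to 285 and 285 to 328, that of 11 dendritic cell markers 20.3 to 24.3 and 23.4 to 30.1, and that of 14 B cell markers 8.38 to 17.6 and 11.1 to 15.3. The sum of 9 T cell markers was 0.508 to 1.63 and 1.85 to 3.72, far lower but also apart. No marker of these 4 lists was at 0 throughout a group. H2-Ab1 counts per Csf1r count, Csf1r being the growth factor receptor of macrophages, were 0.257, 0.219 and 0.284 in wild type sham and 0.436, 0.52 and 0.518 in T497A sham. Against Mpeg1, another macrophage gene, the ratio overlapped between these groups, at 1.22, 0.803 and 1.37 in wild type sham hearts and 1.0, 1.38 and 1.29 with T497A. Mpeg1 itself had means of 7.09 and 13.1 CPM there. Among genes of at least 1 CPM outside the set, it was the most like the class II genes over the 12 libraries, as given below. An overlapping ratio to it was therefore favoured. The median log2 difference of the 18 macrophage markers was 0.13. The part of the cells of these 4 lists in the difference was not tested.

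**Figure D3:**
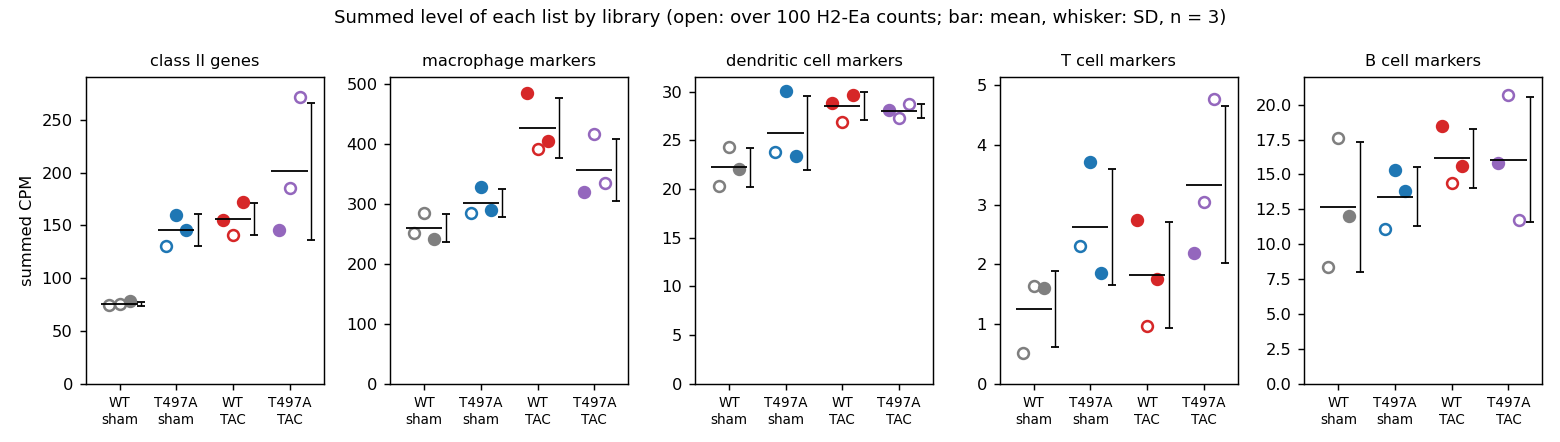
Summed CPM (vertical axes, from 0) of the 8 class II genes and of 4 lists of cell markers in each library (points; bar, mean; whisker, SD, n = 3; open points, over 100 H2-Ea counts). The class II sum was 74.4 to 78.0 in wild type sham and 130 to 160 in T497A sham, while the macrophage sums of these groups were 241 to 285 and 285 to 328.

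Pressure overload raised most of the set when averaged over both genotypes. As a contrast of group means this is orthogonal to the one used for choosing. The spread is shared, however: the rank of H2-Ab1 came from the same fit over all 12 libraries. A choice by small p favours genes of small spread, so these p-values are not free of the choice. With edgeR's quasi-likelihood test and Benjamini-Hochberg adjustment over all 15764 genes, 6 of the 8 genes rose after TAC and none fell. Over all tested genes 11.2% were called higher. The median log2 difference was 0.73 over the 8 genes and 0.01 over all genes tested. Ctss rose 1.95-fold (log2 0.96 ± 0.1, adjusted p = 4.07e-05 in edgeR), H2-Ab1 1.64-fold (0.71 ± 0.12, adjusted p = 0.00113) and Cd74 1.67-fold (0.74 ± 0.14, adjusted p = 0.00441). H2-Eb1 rose 1.78-fold (0.83 ± 0.17, adjusted p = 0.00629), H2-Aa 1.58-fold (0.66 ± 0.15, adjusted p = 0.00939) and H2-DMb1 1.74-fold (0.8 ± 0.22, adjusted p = 0.0195).

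The 2 genes that did not pass were H2-DMa, at 1.49-fold (adjusted p = 0.165 in edgeR), and Ciita, at 1.32-fold (adjusted p = 0.152). Without T497A TAC replicate 3 the number called was 5, since H2-DMb1 was at log2 0.62 with an adjusted p of 0.0556. H2-DMb1 was also lost without wild type TAC replicate 3 (adjusted p = 0.053). With a term for H2-Ea 6 were called.

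Within wild type, TAC against sham shares the wild type sham libraries, the low group of the choosing contrast, so a high value here was favoured by the choice, and H2-Ab1 itself was not tested (log2 1.11 ± 0.18). Of the 7 other genes 5 rose, where 12.3% of all tested genes were called higher. Among these 5, Cd74, H2-Eb1, H2-Aa and H2-DMb1 had ranks 9, 10, 13 and 37 in the choosing contrast. The choice thus favoured their calls too, and the count cannot be set against the share of all genes as support. H2-DMb1 rose 2.54-fold (log2 1.35 ± 0.32, adjusted p = 0.00791 in edgeR), H2-Eb1 2.44-fold (1.29 ± 0.25, adjusted p = 0.00385), Ctss 2.08-fold (1.05 ± 0.15, adjusted p = 0.000216), Cd74 2.06-fold (1.05 ± 0.21, adjusted p = 0.00428) and H2-Aa 1.81-fold (0.86 ± 0.21, adjusted p = 0.0139). H2-DMa was at 1.86-fold (adjusted p = 0.127) and Ciita at log2 -0.12 ± 0.27 (adjusted p = 0.782). The wild type groups did not overlap for 6 of the 8 genes, against 21.5% of all genes in this direction. The choice favoured this count in the same way, so that share is no yardstick for it either. The call of H2-Aa was lost without a filter on low counts (adjusted p = 0.0517) and without wild type sham replicate 3 (0.0512).

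Within T497A, TAC against sham called only Ctss of the 7 genes tested, where 0.0634% of all genes were called higher. Ctss rose 1.83-fold (log2 0.87 ± 0.15, adjusted p = 0.0446 in edgeR). This call sat at the threshold: without T497A TAC replicate 3 Ctss was at log2 0.67 (adjusted p = 0.0723), and with the H2-Ea term at 0.86 (0.0807). It was lost in 9 of the 12 fits that left out 1 library and held without T497A TAC replicate 1, wild type TAC replicate 2 or wild type sham replicate 2. Ciita was at 1.9-fold (log2 0.92 ± 0.27, adjusted p = 0.206), H2-Aa at 1.38-fold (0.46 ± 0.21, adjusted p = 0.431) and Cd74 at 1.35-fold (0.44 ± 0.2, adjusted p = 0.441). H2-Eb1 was at 1.3-fold, H2-Ab1, not tested, at 1.24-fold, H2-DMa at 1.2-fold and H2-DMb1 at 1.19-fold. Groups did not overlap for Ctss and Ciita, 2 of the 8 genes, against 7.71% of all genes. Without T497A TAC replicate 3 the log2 value fell to 0.14 for Cd74 and 0.11 for H2-Aa. This contrast shares the T497A sham libraries, the high group of the choosing contrast.

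The log2 effect of TAC in T497A minus that in wild type had a median of -0.62 over the 8 genes and was above 0 for 1 of them, Ciita. It contains the choosing contrast and is given with no test. Side by side, T497A sham and wild type TAC libraries overlapped for every member but Ctss, which lay at 11.9 to 13.9 CPM in the former and 18.7 to 23.0 in the latter.

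After TAC the genotypes differed in 1 of the 8 genes, Ciita, where 8.7% of all tested genes differed in either direction and 4.64% were higher and 4.06% lower in T497A. These TAC libraries were not in the contrast used for choosing, but they shared in the estimate of the spread behind its p. After TAC, Ciita was 2.16-fold higher with T497A than in wild type (log2 1.11 ± 0.27, adjusted p = 0.0208 in edgeR), and its groups did not overlap, as for 14.4% of all genes in this direction. The call was lost without T497A TAC replicate 3 (log2 0.88, adjusted p = 0.105) and without wild type TAC replicate 1, 2 or 3 (adjusted p = 0.0507, 0.07 and 0.0563), and also with only the 6 TAC libraries in the fit (0.058). Its direction was the same each time. With the H2-Ea term it stood (log2 1.1, adjusted p = 0.039).

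The other genes of the set did not pass this test. H2-Aa was 1.45-fold higher in T497A TAC (95% interval 1.09 to 1.93, adjusted p = 0.144 in edgeR), Cd74 1.32-fold (1.0 to 1.74, adjusted p = 0.268), H2-Eb1 1.22-fold (0.882 to 1.7, adjusted p = 0.521) and H2-Ab1 1.19-fold (0.945 to 1.5, adjusted p = 0.411). H2-DMa was at 1.05-fold (0.619 to 1.78) and H2-DMb1 at 1.01-fold (0.666 to 1.52), with wide intervals. Ctss was at 1.14-fold (0.939 to 1.39, adjusted p = 0.466). Library T497A TAC replicate 1 lay lowest and replicate 3 highest of this group for all 8 genes. Without replicate 1 the call was made for 3 genes, Cd74 (log2 0.61, adjusted p = 0.0438), H2-Aa (0.78, 0.00895) and Ciita (1.32, 0.0165). Without replicate 3 Cd74 was at log2 0.1, H2-Aa at 0.19 and H2-Ab1 at 0.02, and no gene was called. Ciita counts per Cd74 count, a ratio within a library, were 0.0308, 0.0332 and 0.0292 in T497A TAC and 0.0217, 0.0159 and 0.0187 in wild type TAC. The ratio was highest in wild type sham, at 0.0408, 0.0377 and 0.0486, and was 0.0243, 0.0229 and 0.0189 in T497A sham.

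**Figure D4:**
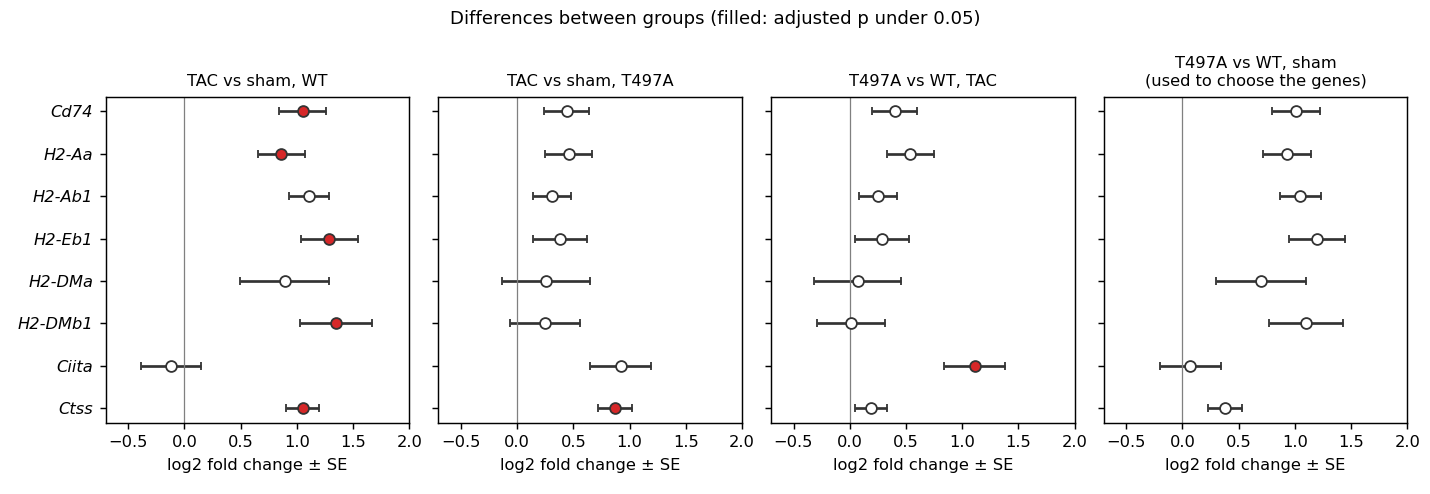
Log2 fold change ± SE (horizontal axes) of the 8 genes in 4 contrasts; filled points passed an adjusted p of 0.05 in edgeR. H2-Ab1 in the first 2 panels and all genes in the last were not tested, since those values bear on how the genes were chosen; Ciita is the 1 filled point between genotypes after TAC, at 1.11.

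Other class II chains were scarce. H2-Ob, a subunit of the DO heterodimer that restrains DM, had group means of 0.428 to 0.681 CPM and did not pass after TAC on average (1.39-fold, adjusted p = 0.248 in edgeR) or between genotypes after TAC (1.02-fold, adjusted p = 0.973). Its partner H2-Oa had 0 to 5 counts per library and H2-Eb2, a second I-E beta chain gene, 0 to 6, and neither was tested. H2-DMb2 did not pass either (1.69-fold after TAC on average, adjusted p = 0.367). The on and off pattern of H2-Ea left an SE of 1.6 on its log2 value of 0.95 after TAC.

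Of 16 tested genes of the machinery that transcribes class II genes, 4 rose and 2 fell after TAC on average, with a median log2 value of 0.03, beside 0.01 over all genes. The counts after TAC on average in this and the next lists stand beside 11.2% of all tested genes called higher and 11.2% called lower. Those between genotypes after TAC stand beside 4.64% called higher and 4.06% called lower. The interferon gamma receptor chain Ifngr1 rose 1.45-fold (adjusted p = 7.61e-06 in edgeR), and Irf8, a transcription factor of myeloid cells, rose 1.4-fold (adjusted p = 0.0139). Nfya, a subunit of the factor on the Y box, and Spi1 also rose. The second receptor chain Ifngr2 fell by 0.22 on the log2 scale (adjusted p = 0.0103) and the kinase Jak1 by 0.23 (0.0248). Between genotypes after TAC Ifngr1 was the 1 gene of the 16 called, a count near the share of all genes. It was at 61.7 CPM in T497A and 78.9 in wild type (log2 -0.36 ± 0.06, adjusted p = 0.00443 in edgeR), the direction opposite to that of Ciita. Ifng, the ligand itself, had 4 counts in the wild type TAC libraries together and 0 in each other group.

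Of 9 genes of endosomal antigen processing, 4 rose after TAC on average and none fell. Ctsz, a lysosomal carboxypeptidase, rose 1.7-fold (adjusted p = 0.000199 in edgeR) and Ifi30, the thiol reductase of endosomes, 1.74-fold (0.000305). Ctsd, the aspartic protease of lysosomes, and Cst3, an inhibitor of cysteine cathepsins, rose 1.13-fold and 1.17-fold. In T497A against wild type TAC hearts 3 of the 9 were lower, where 4.06% of all tested genes were, and none was higher. They were Ctsz (log2 -0.51 ± 0.14, adjusted p = 0.0426 in edgeR), Ctsd (-0.26 ± 0.07, 0.044) and Cst3 (-0.35 ± 0.1, 0.0446). Ctss, which acts in the same endosomes, was at 0.19 ± 0.14 in this contrast.

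Of 9 genes of class II turnover and of contact with T cells, 4 rose after TAC on average and none fell. They were the costimulatory genes Cd80 (1.41-fold, adjusted p = 0.0302 in edgeR), Cd86 (1.39-fold, 0.0175) and Cd40 (1.66-fold, 0.00909), and Cd4 (1.72-fold, 0.0107), the coreceptor of class II, which is also found on some myeloid cells. No gene of this list was called between genotypes after TAC.

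Of 13 genes of the class I route 6 rose after TAC on average and 1 fell, beside 11.2% of all tested genes in each direction, with a median log2 value of 0.42. Psmb8 and Psmb10, subunits of the immunoproteasome, rose 1.47-fold (adjusted p = 0.00702 in edgeR) and 1.42-fold (0.00354). B2m, the light chain of class I, rose 1.53-fold (0.0155), and Nlrc5, the class I counterpart of Ciita, 1.55-fold (0.0163). The proteasome activator Psme1 fell by 0.26 on the log2 scale (0.00929). With T497A after TAC 1 of the 13 was higher, where 4.64% of all tested genes were. It was Erap1, which trims class I peptides (1.3-fold, 0.0204), while Nlrc5 was at 1.36-fold (0.277).

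Of 11 targets of interferon gamma 1 rose after TAC on average, a share near that of all genes: Cxcl10 (3.64-fold, adjusted p = 0.0255 in edgeR, from a mean of 0.283 CPM). Between genotypes after TAC none of the 11 passed, although the median log2 value was 0.8 and all 11 were above 0. The smallest adjusted p-values were those of Cxcl9, a chemokine for T cells (2.65-fold, 0.0507), and Gbp4, a guanylate-binding protein (1.75-fold, 0.0536). The summed CPM of the list was 167, 263 and 455 in T497A TAC replicates 1, 2 and 3, and 150 to 179 in wild type TAC. Cxcl9 was at 4.06, 8.94 and 15.3 CPM in the same order, and at 2.82 to 4.47 in wild type TAC. Replicate 1 thus lay within the wild type range for both. The log2 values of this list include replicate 3, and none is given without it.

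**Figure D5:**
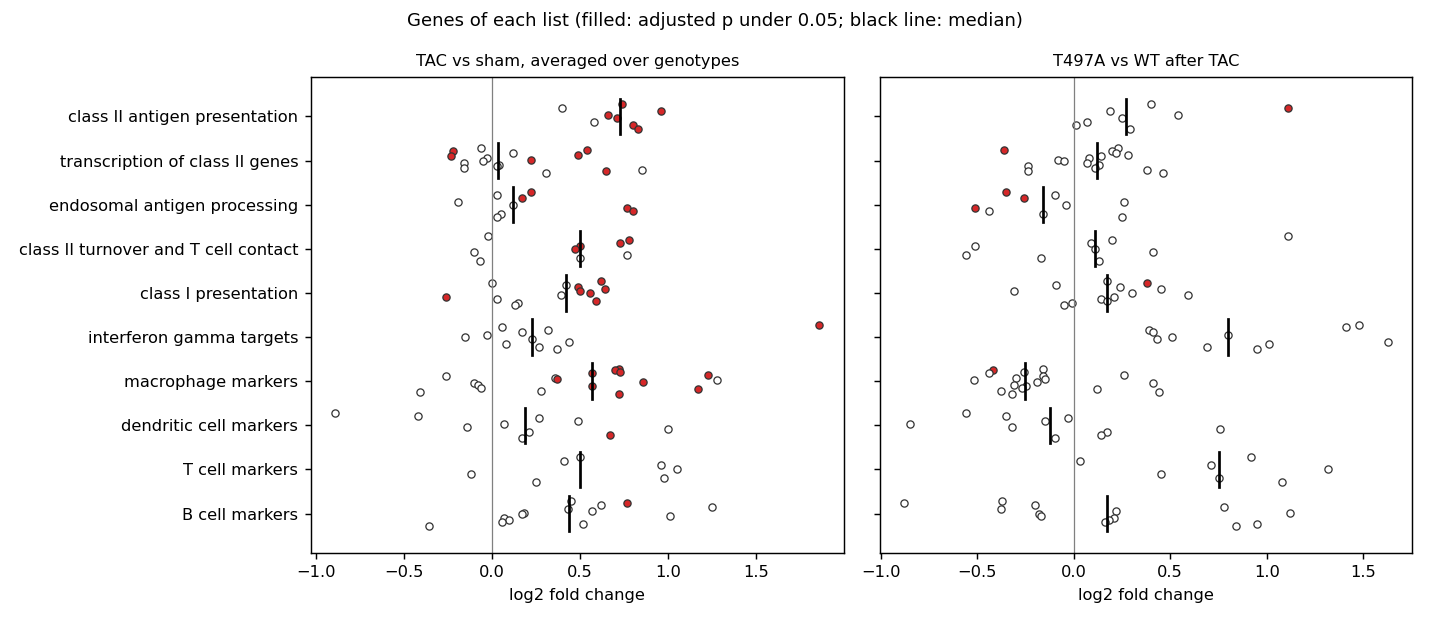
Log2 fold change (horizontal axes) of each tested gene of the class II set, of pathway lists and of marker lists after TAC on average (left) and between genotypes after TAC (right); black lines are medians and filled points passed an adjusted p of 0.05 in edgeR. The class II median is 0.73 on the left and 0.27 on the right, and the macrophage median 0.57 and -0.25.

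Part of the macrophage markers rose beside the class II genes after TAC. Of 18 markers 10 rose on average and none fell, with a median log2 value of 0.57, among them Ccr2, the receptor of recruited monocytes (2.35-fold, adjusted p = 0.00225 in edgeR), Mpeg1 (2.24-fold, 0.000313) and the complement gene C1qa (1.62-fold, 7.66e-05). Values were above 0 for 13 of the 18, and those below 0 were Timd4 (log2 -0.41), Cd163 (-0.26), Folr2 (-0.1), Lyve1 (-0.08) and Mertk (-0.06), genes known from resident macrophages, none of which passed. Their sum was 392 to 484 CPM in wild type TAC and 319 to 416 in T497A TAC, against 241 to 285 and 285 to 328 in the sham groups. C1qa was the 1 marker of the 18 called between genotypes after TAC, a count near the share of all genes. It was lower in T497A (log2 -0.42 ± 0.12, adjusted p = 0.0401 in edgeR), and 4 of the 18 were above 0. Of 10 tested dendritic cell markers 1 rose after TAC on average, Xcr1 (1.59-fold, 0.028), of 14 B cell markers 1, Blk (1.7-fold, 0.0135), and of 7 T cell markers none, counts not above the 11.2% of all genes called higher. No marker of the last 3 lists was called between genotypes after TAC. Fibroblast markers rose in 6 of 8 and cardiomyocyte markers fell in 6 of 8 after TAC on average. With T497A after TAC the fibroblast collagens Col1a1 and Col1a2 were called lower and the cardiomyocyte genes Tnni3, Ryr2 and Pln higher, in the contrast that called Ciita. Over all tested genes 4.06% were called lower there and 4.64% higher. The share of mitochondrial counts was 19.6% to 20.9% in wild type TAC and 24.6% to 30.9% in the other groups. The part of cell makeup in the class II values was not tested.

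Across the 12 libraries the members differed in how closely they followed the chains. Against the mean standardised log2 CPM of H2-Aa, H2-Ab1, H2-Eb1 and Cd74, which are part of that mean, the Pearson r of H2-DMb1 was 0.925, that of Ctss 0.855, that of H2-DMa 0.812 and that of Ciita 0.586. With each group's mean subtracted the values were 0.721, 0.82, 0.936 and 0.851, and without T497A TAC replicate 3 as well they were 0.229, 0.528, 0.952 and 0.771. These are descriptions over libraries that share the group differences, with no p. The r of H2-DMb1 and of Ctss thus dropped without that library more than those of H2-DMa and Ciita.

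The genes outside the set most like this mean over all 12 libraries, among those of at least 1 CPM, were Mpeg1 (r = 0.89, Spearman's rho 0.79), Gm10800 (0.885, 0.839), Traf3ip1 (0.877, 0.895), Slfn2 (0.87, 0.874) and Itgb2 (0.865, 0.874). Leaving out the 2 libraries farthest from the median, wild type sham replicates 1 and 2, gave r of 0.852, 0.795, 0.928, 0.78 and 0.845. Mpeg1, a pore-forming protein of macrophages, measured 7.09 CPM in wild type sham, 20.8 in wild type TAC, 13.1 in T497A sham and 22.6 in T497A TAC. With group means subtracted the 5 most alike were Hebp1 (r = 0.932), Ifi211 (0.924), Rassf2 (0.907), Eno2 (0.894) and Nlrc5 (0.892), and without T497A TAC replicate 3 their r was 0.778, 0.799, 0.825, 0.872 and 0.885. Each set of 5 holds the highest r in a search over all genes of that level. With only 12 libraries such a search favours high values, and no p is given. For whole lists with group means subtracted, the mean log2 CPM of the class I list had an r of 0.822, and 0.82 without that library. For interferon gamma targets r was 0.859 and 0.634, and for macrophage markers 0.238 and 0.541.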

How the data were processed

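Values were deposited as raw read counts per gene. Per the labels' protocols, libraries were made from total RNA with an mRNA kit and sequenced single-end for 75 cycles. Per the submitters' processing notes, the tools were STAR 2.7.3a, Trim Galore 0.6.4, Subread 1.6.3, featureCounts and limma 3.50.3, with mm10. The sources used here do not give their order, settings, annotation release, use of strand or treatment of multi-mapped reads.

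Groups came from the labels. Since the replicate number in all titles is the same, accession order numbers the replicates and pairs nothing. Genes kept by filterByExpr (minimum count 10) were fitted in 1 model over 4 groups with edgeR 4.0.16 (R 4.3.3): TMM, robust glmQLFit, glmQLFTest, Benjamini-Hochberg adjustment over 15764 genes, threshold 0.05. The SE is the log2 fold change divided by the root of F. The biological coefficient of variation was 17.2%. Scripts were tested on simulated data. CPM uses TMM library sizes. Identifiers matched GENCODE M21 for 54349 of 55401 rows. Alternatives were DESeq2 1.42.0, limma-voom 3.58.1, RLE factors, no filter, no mitochondrial genes, the 6 libraries compared, each library left out, and the H2-Ea term.

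The members and lists were chosen with earlier results of these data known. Named were all members, the other class II chains and the 5 most alike genes by each measure. Per pathway list, up to 4 genes with the smallest adjusted p were named for TAC on average and for genotypes after TAC. In the transcription list the other called genes and Ifng were named as well, and in the class I list Nlrc5. Members of marker lists, and Ctss or Nlrc5 where set beside another list, were picked as examples after their values were seen.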

Additional observations from a re-analysis of the deposited data

How the results depend on the processing

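No paired analysis was possible because all titles carry the same replicate number and no label pairs libraries. With DESeq2, limma-voom, RLE factors, no mitochondrial genes or the H2-Ea term, 6 members were called higher after TAC on average, as in the report, and 7 with no filter on low counts, which added H2-DMa (adjusted p = 0.0478 in edgeR). Between genotypes after TAC, 0 members were called with only the 6 libraries compared. For TAC in T497A, 0 members were called with limma-voom, with the H2-Ea term and with only the 6 libraries. The count of all genes called in either direction was 18 in the main fit, of which 10 were higher. In either direction it was 297 with DESeq2, 331 with no filter, 1 with the H2-Ea term and 0 with the 6 libraries. At an unadjusted p under 0.05 in edgeR the count in the main fit was 1837. Between genotypes after TAC the log2 value of H2-DMa was -0.03 with limma-voom, and that of H2-DMb1 -0.03 with limma-voom and -0.06 with the H2-Ea term.

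Leaving out 1 library at a time gave 0 to 3 members called between genotypes after TAC, 5 to 6 after TAC on average, 4 to 5 for TAC in wild type and 0 to 1 for TAC in T497A. The counts of all genes ran from 463 to 1455, from 2779 to 3617, from 2766 to 3983 and from 0 to 36 in the same order. Log2 values changed sign for H2-DMa (-0.45 to 0.38) and H2-DMb1 (-0.36 to 0.18) and Ctss (-0.01 to 0.32) between genotypes after TAC, for H2-DMa (-0.26 to 0.56) and H2-DMb1 (-0.11 to 0.42) for TAC in T497A, and for Ciita (-0.23 to 0.02) for TAC in wild type and (-0.05 to 0.17) between genotypes after sham, which was not tested. None of these was called. The causes of these changes were not tested. H2-DMa, H2-DMb1 and Ciita rest on 14 to 176 counts per library, which limits what can be detected for them.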

Other observations

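Further genes of chromosome 17 were on and off in the same libraries as H2-Ea, a pattern noticed in these data. H2-Q1 had 26 to 79 counts in the 6 libraries with H2-Ea and 0 to 1 in the other 6. H2-Q2 had 24 to 61 and 0 to 1, H2-K2 103 to 179 and 11 to 40, and Gm10503 105 to 197 and 0 to 4. H2-Q1, H2-Q2 and H2-K2 are class I genes of the same complex. Of 731 tested genes on chromosome 17, 14 (1.92%) had no overlap between these libraries, and of all 15764 tested genes 37 (0.235%). These counts describe a split found in the data and carry no test.

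Single libraries stood apart in immune genes outside the set. Cxcl13, a chemokine for B cells, had 750 counts in T497A TAC replicate 1 and 0 to 18 in each other library. Igtp, an interferon-inducible GTPase, had 2524 counts in T497A TAC replicate 3, the library highest for all 8 class II genes, and 340 to 753 in each other library.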
